A study of Mus musculus with 6 samples.

Results

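The MHC class II genes and the invariant chain, the machinery that shows peptides from engulfed proteins to CD4 T cells, were followed in cultured mouse astrocytes with and without tumour necrosis factor (TNF). The set was chosen by gene name and comprised 8 genes, all measured, of 19926 genes on the arrays: Cd74, H2-Aa, H2-Ab1, H2-Eb1, H2-DMa, H2-Oa, H2-Ob and Ciita. Each gene was represented by the probe set with the highest mean signal among those named for that gene alone. The set was proposed for the comparison of TNF with control arrays, so the differences of these 8 genes between the groups are given as a description, without a test of their own.

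The cells were primary astrocytes of C57BL/6J mice, glial cells that support neurons and can take up an inflammatory state. Control cultures (3 arrays, replicates 1 to 3) and cultures given TNF at 50 ng/mL (3 arrays, replicates 1 to 3) were both collected at 24 h, and the labels name neither a vehicle nor a genetic change in either group. Each sample was read on its own Affymetrix Mouse Gene 1.0 ST array, and the values are log2 signals, where a difference of 1 is a doubling of signal. The labels do not say that the replicates were separate cultures or animals, so p-values measure the spread between these arrays, which may be technical.

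Class II molecules are pairs of an alpha and a beta chain. In the mouse these are I-A, made of H2-Aa and H2-Ab1, and I-E, made of H2-Ea and H2-Eb1; mice with the b haplotype, to which C57BL/6J belongs, do not transcribe H2-Ea and carry no I-E. The invariant chain Cd74 fills the binding groove and steers the new dimer to endosomes, where the non-classical dimer H2-DM exchanges its remnant for peptide and H2-O holds H2-DM back. Ciita is the coactivator that switches these genes on together. It docks on factors already bound at the S, X and Y boxes of their promoters, and interferon-gamma is its best known inducer outside the professional antigen-presenting cells.

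Promoter sequence was available for 5 of the 8 genes in the RefSeq promoter table (GRCm38.p6), and Cd74, H2-Ab1 and Ciita had no entry. H2-Aa, H2-Eb1, H2-Oa and H2-Ob are shown because they share the same box letters on the same strand but differed in their response. Each line holds the 150 bases before the annotated transcription start, read in the direction of the gene, at chr17:34287824-34287973 (minus strand) for H2-Aa, chr17:34305717-34305866 (plus) for H2-Eb1, chr17:34092229-34092378 (plus) for H2-Oa and chr17:34238755-34238904 (plus) for H2-Ob. No annotated gene overlapped these stretches for H2-Aa, H2-Eb1 and H2-Ob, and that of H2-Oa overlapped BC051537. Capitals mark GCAAC, the core of the X box that the RFX complex binds, and GATTGG, the Y box with the CCAAT sequence of NF-Y read on the opposite strand.
H2-Aa: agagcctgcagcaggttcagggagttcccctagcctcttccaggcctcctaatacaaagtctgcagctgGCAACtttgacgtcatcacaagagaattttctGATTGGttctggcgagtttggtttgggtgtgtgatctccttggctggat
H2-Eb1: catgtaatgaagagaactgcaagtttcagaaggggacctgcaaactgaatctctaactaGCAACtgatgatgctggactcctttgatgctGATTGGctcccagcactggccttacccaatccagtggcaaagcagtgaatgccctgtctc
H2-Oa: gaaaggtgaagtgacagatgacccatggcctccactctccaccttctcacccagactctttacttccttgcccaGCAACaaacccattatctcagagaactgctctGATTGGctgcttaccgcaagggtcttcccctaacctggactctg
H2-Ob: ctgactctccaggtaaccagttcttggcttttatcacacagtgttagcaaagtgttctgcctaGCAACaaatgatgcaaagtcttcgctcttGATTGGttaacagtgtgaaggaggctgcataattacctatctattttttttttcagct

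The letters GCAAC began 81 bases before the start in H2-Aa, 91 in H2-Eb1, 76 in H2-Oa and 87 in H2-Ob, and GATTGG followed 32, 31, 32 and 29 bases further on. Neither start listed for H2-DMa held this pair within 250 bases. The 150 bases before the first overlapped Brd2 and H2-DMa, and those before the second overlapped H2-DMa itself. Other possible starts of H2-DMa were not searched, so it cannot be said that the gene lacks the boxes. GCAAC alone stood in 29.9% and GATTGG alone in 14.6% of all 32851 promoters on either strand, whereas GCAAC followed by GATTGG at 25 to 35 bases, on the strand of the gene, was found in 32 of them (0.0974%). The spacing was set after these promoters had been read. Those 32 promoters belonged to 28 genes, among them 5 named H2: the 4 shown and H2-Eb2. The array measured 19 of the 24 genes of this group that are outside the set, and none was called with TNF (limma adjusted p from 0.155 to 0.989, differences from -0.31 to 0.45); at an unadjusted p under 0.05, 1 was higher and 1 lower.

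Letters of factors that act in inflammation were searched in the same 250 bases, on both strands. The frame of the NF-kB consensus, GGG and CC with any 5 bases between them, was present in 45.8% of all promoters. It was found in H2-Aa, H2-Eb1, H2-Oa and the first start of H2-DMa, the one that overlaps Brd2. The interferon response pattern, GAAA repeated after any 2 bases, was not found in any of the 5 genes, against 2.98% of all promoters. The pattern TTCNNNGAA, where N is any base, was also searched. It was not found in any of the 5 genes, against 7.02% of all promoters. A match is a description of letters and not of binding.

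Cd74, H2-Aa and H2-Ab1 were much higher with TNF, while H2-DMa and H2-Eb1 differed little, and Ciita, H2-Oa and H2-Ob less. The median log2 difference of the 8 genes was 0.56, against 0 for all 19926 genes. In the fit over all genes (limma, Benjamini-Hochberg adjusted p under 0.05), 3 of the 8 passed as higher and 0 as lower. At that threshold 3.87% of all genes were higher and 3.33% lower (7.20% in either direction). At an unadjusted p under 0.05 the set had 5 higher and 0 lower. The share of all genes was not counted for this or any other unadjusted count. With the replicate number as a block, 6 of the 8 were past the threshold as higher and 0 as lower, where 9.73% of all genes were higher and 11.8% lower (21.5% in either direction). Nothing is read from these counts, since the set was proposed for this contrast. In controls, 7 of the 8 genes lay below the median gene signal, and no detection calls were used, so low values may lie near background; the folds and the rank of Cd74, H2-Aa and H2-Ab1 are subject to this too.

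Cd74, the invariant chain, had the largest difference of the set. Control arrays 1 to 3 gave log2 signals of 5.66, 5.93 and 5.99, and TNF arrays 1 to 3 gave 10.27, 10.76 and 10.16. The groups lay far apart, with the lowest TNF array more than 4 units above the highest control. The difference was 4.54 (SE 0.18), or 23.2-fold, the 13th largest increase among all genes measured. It was 4.61, 4.84 and 4.17 within replicate numbers 1, 2 and 3.

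H2-Aa, the alpha chain of I-A, was at 5.52, 5.22 and 5.75 in controls and at 8.83, 9.56 and 8.39 with TNF. Control 2 was the lowest control and TNF 2 the highest TNF array, so its within-pair difference was the widest, 4.34 against 3.31 and 2.64 for numbers 1 and 3. Over the groups the difference was 3.43 (SE 0.29), or 10.8-fold. H2-Ab1, the beta chain of the same dimer, was at 5.93, 6.03 and 6.23 in controls and at 8.29, 9.11 and 8.10 with TNF. The groups again stood apart, by a difference of 2.43 (SE 0.25), or 5.40-fold, with 2.35, 3.08 and 1.87 within the pairs. Of the 8 genes 4 were higher on every TNF array than on any control, Cd74, both chains of I-A and H2-DMa, and 0 were lower on every one; for all genes these shares were 12.3% and 11.7%.

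H2-Eb1, the beta chain of I-E, behaved differently from the I-A chains. Its values were 7.35, 7.51 and 7.75 in controls and 7.63, 8.55 and 8.07 with TNF, and the groups overlapped because TNF 1 lay below control 3. The difference was 0.55 (SE 0.23), or 1.46-fold. Within the pairs it was 0.28, 1.04 and 0.32, so most of the group difference came from replicate 2. H2-Ea, its partner, read 5.55, 5.52 and 5.65 in controls and 5.18, 5.15 and 5.65 with TNF, a difference of -0.25 (SE 0.15, limma adjusted p = 0.494). H2-Eb2, a further beta chain gene, differed by -0.02 (SE 0.20, adjusted p = 0.989).

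**Figure D1:**
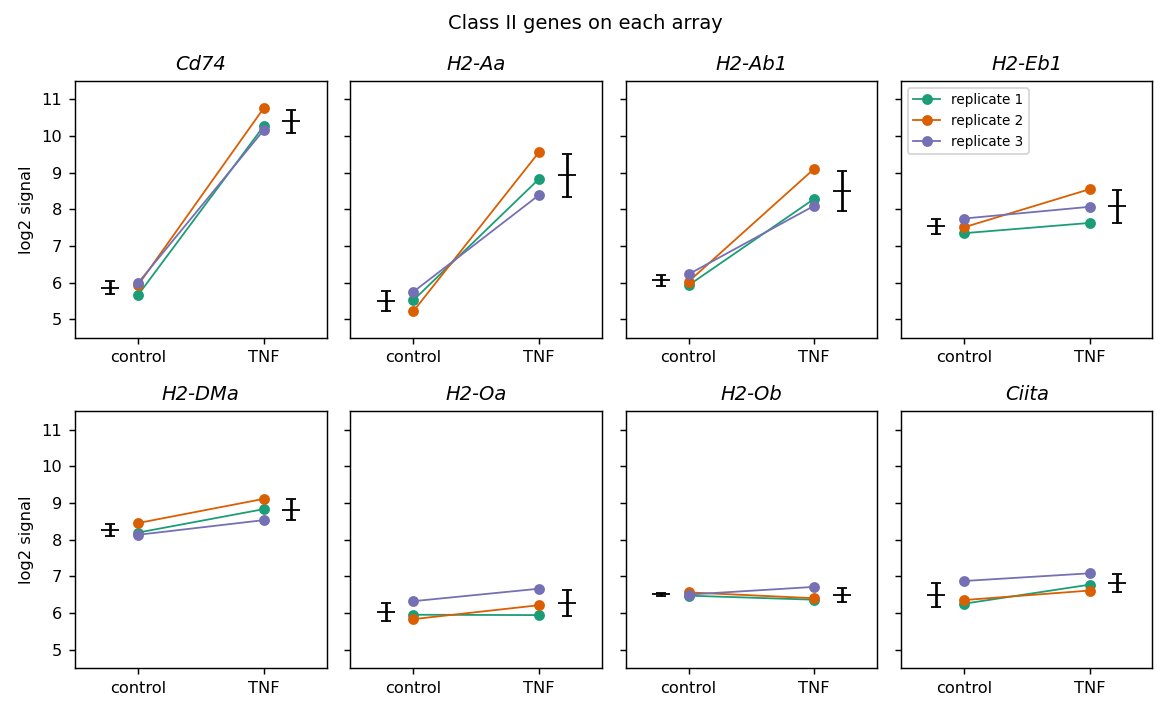
Log2 signal of the 8 class II genes on each array, control at left and TNF at right in every panel; lines join arrays with the same replicate number and black bars give the mean ± SD of 3 arrays. Cd74, H2-Aa and H2-Ab1 are separated by group, with differences of 4.54, 3.43 and 2.43, while H2-Ob is level at 6.51 and 6.49.

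Among the peptide-exchange genes, H2-DMa, the alpha chain of the editor H2-DM, was at 8.19, 8.45 and 8.13 in controls and at 8.83, 9.11 and 8.53 with TNF. The groups did not overlap, and the difference was 0.57 (SE 0.17), or 1.48-fold, higher within each pair by 0.64, 0.66 and 0.39. Its partner chains H2-DMb1 and H2-DMb2 share a single probe set that cannot tell them apart and stood outside the fit over genes. That probe set was at 6.81, 6.82 and 7.19 in controls and at 7.18, 7.51 and 7.22 with TNF, a difference of 0.36 (SE 0.16, limma adjusted p = 0.392 over all probe sets).

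The H2-O chains, which restrain H2-DM and are known mainly from B cells and thymus, hardly differed. H2-Oa read 5.95, 5.83 and 6.32 in controls and 5.94, 6.21 and 6.66 with TNF, and the replicate 3 array was the highest of its group on both sides. Its group difference was 0.24 (SE 0.21). H2-Ob read 6.47, 6.56 and 6.50 in controls and 6.36, 6.40 and 6.71 with TNF, a difference of -0.02 (SE 0.13), with the sign changing between pairs (-0.11, -0.15 and 0.22).

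Ciita, the coactivator of the set, was at 6.25, 6.35 and 6.87 in controls and at 6.77, 6.61 and 7.08 with TNF. Control 3 lay above TNF 1 and TNF 2, so the groups overlapped. The difference was 0.33 (SE 0.19), or 1.26-fold, and it was positive within each pair, at 0.52, 0.26 and 0.21. The Ciita difference was largest in replicate 1, and those of Cd74, H2-Aa, H2-Ab1, H2-Eb1, H2-DMa and H2-Oa in replicate 2. For H2-DMa (0.66 in replicate 2, 0.64 in replicate 1) and H2-Oa (0.38 in replicate 2, 0.34 in replicate 3) the lead was small. Whether Ciita and the other genes vary together over the pairs was not tested. The difference was largest in replicate 2 for 6 of the 8 genes and for 33.7% of all genes. It was above 0 in each of the 3 pairs for 6 of the 8, all but H2-Oa and H2-Ob, where 25.7% of all genes were higher in each pair and 26.9% lower.

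The replicate numbers, which pair a control with a TNF array, were a further source of variation that the choice of the set did not use. In the test of replicate number with the treatment accounted for (limma, moderated F over both groups), 2 of the 8 genes were called, beside 23.0% of all genes. These were Ciita (adjusted p = 0.0335) and H2-Oa (adjusted p = 0.0357), which were higher in replicate 3 than in replicate 1 by 0.46 and 0.55. Neither was called after quantile normalization of the genes, which called 0 of the 8. Control 3 was the highest control in 6 of the 8 genes and in 39.1% of all genes. The arrays of replicate 3 had a raised lower quartile of gene signals, 6.27 and 6.33 against 6.01 to 6.09 elsewhere, and the part of this shift in the values of these dim genes was not tested. Cd74 (adjusted p = 0.189), H2-Aa (0.706) and H2-Ab1 (0.284) were not called.

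Microglia, the resident macrophages of the brain, also make class II and are a usual companion of astrocytes in culture. The 20 microglia and macrophage markers varied strongly with replicate number: 17 were called in the test of replicate number, beside 23.0% of all genes. The list mean was 7.02, 6.31 and 7.78 (log2 signal) on control arrays 1 to 3 and 7.48, 6.45 and 7.90 on TNF arrays 1 to 3. Replicate 2 was thus the lowest in both groups; 20 of 20 markers were lowest in control 2 among the controls and 19 of 20 in TNF 2 among the TNF arrays, against 7385 and 5462 of all 19926 genes. Replicate 2 was also lowest for 10 of 12 astrocyte markers in controls and 8 of 12 with TNF. Of 10 dendritic cell markers it was lowest for 2 in controls and 8 with TNF, and of 9 B cell markers for 8 and 2. Of 8 endothelial markers it was lowest for 3 in controls and 1 with TNF, and of 9 fibroblast and mural markers for 1 and 2. TNF 2 had the highest signal of all 6 arrays for Cd74, H2-Aa, H2-Ab1, H2-Eb1 and H2-DMa, 5 of the 8 genes against 15.0% of all genes. The other members and the controls did not share this order: Ciita was lowest in TNF 2 among the TNF arrays, H2-Aa and H2-Oa were lowest in control 2 among the controls, and control 3 was the highest control in 6 of the 8, as it was for the microglia list. Spi1, the transcription factor of the myeloid lineage, read 6.17 in TNF 2 against 7.20 and 7.37 in TNF 1 and 3; it was the fourth marker of the list by p.

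With TNF the microglia list differed within the pairs by 0.46, 0.14 and 0.12, with a median over the markers of 0.19. Of 20 markers 1 was called higher and 0 lower (2 and 0 at an unadjusted p under 0.05). At the adjusted threshold 3.87% of all genes were higher and 3.33% lower. With the replicate block 4 of the 20 were called higher and 0 lower, Cd14, Cd68, Itgam and C1qb (limma adjusted p from 0.00479 to 0.0307), where 9.73% of all genes were higher; C1qb was named after its values were seen. The gene called without the block was Cd14, an endotoxin coreceptor (0.71, SE 0.14, limma adjusted p = 0.0211), and the call was lost without control 1, control 2, TNF 1 or TNF 2 (adjusted p from 0.0667 to 0.0805). Without both arrays of replicate 2 the differences of Cd74, H2-Aa and H2-Ab1 were 4.39, 2.98 and 2.11, and without those of replicate 3, where the microglia markers were highest, 4.72, 3.83 and 2.71. The part of microglia in the remaining differences was not tested. In bulk RNA, more cells that carry a transcript and more transcript per cell cannot be told apart.

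Other cells that carry class II are dendritic cells and B cells. Of 10 dendritic cell and 9 B cell markers 0 were called with limma, 0 at an unadjusted p under 0.05 and 0 with the replicate block, and their median differences were -0.01 and -0.03. Dendritic list means ran from 6.07 to 6.24 in controls and from 6.02 to 6.44 with TNF, and B cell list means from 5.78 to 5.94 and from 5.65 to 6.11. The astrocyte list kept high mean signals, 10.44 to 10.73 in controls and 10.05 to 10.32 with TNF, but not every marker was bright. Gjb6 averaged 5.23 in controls and 5.17 with TNF, and S100b 6.59 and 6.19, both named after their values were seen. Of the 12 markers 4 were called lower with TNF, where 3.33% of all genes were lower. These were Aldoc, Gja1, Fgfr3 and Glul (log2 differences from -1.01 to -0.88). With the replicate block 7 of the 12 were lower and 2 higher; the 2, named after their values were seen, were the glutamate transporter Slc1a2 and the water channel Aqp4 (0.60 each, adjusted p = 0.0617 and 0.0718 without the block, 0.0123 and 0.0069 with it). Gja1 lost its call without control 1, control 3 or TNF 2 (adjusted p from 0.0538 to 0.0572), and each of the 4 lost it without both arrays of at least 1 replicate number (adjusted p from 0.0526 to 0.134). Of 8 endothelial and of 9 fibroblast and mural markers 1 each was called lower, Kdr (adjusted p = 0.0105) and Acta2 (adjusted p = 0.0174). Both lost the call without replicate 1 or replicate 2 (0.0771 to 0.135). Acta2 also lost it without replicate 3 (0.0939) and without any single control (0.0566 to 0.0632).

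**Figure D2:**
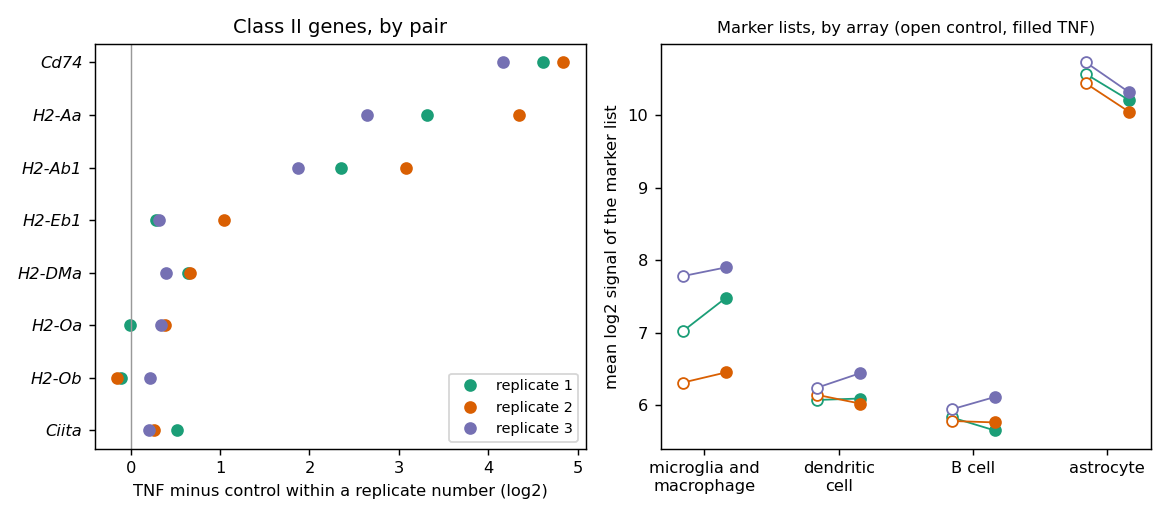
Left, TNF minus control of each class II gene within a replicate number (log2); right, mean log2 signal of 4 marker lists on each array, open for control and filled for TNF. Replicate 2 has the widest Cd74 difference (4.84) and the lowest microglia and macrophage means (6.31 and 6.45).

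The H2 genes of the set are neighbours, so their response was set against gene order. From H2-Oa to H2-Eb2 the RefSeq table lists 14 protein-coding genes, 12 of them measured and 6 of these in the set. The order was H2-Oa, Brd2, H2-DMa, H2-DMb2, H2-DMb1, Psmb9, Tap1, Psmb8, Tap2, H2-Ob, H2-Ab1, H2-Aa, H2-Eb1 and H2-Eb2. Of the 6 measured neighbours outside the set 4 rose and 0 fell, where 3.87% of all genes were higher and 3.33% lower. All 4 were genes of the MHC class I peptide supply. The immunoproteasome subunits were Psmb8 (14.2-fold, limma adjusted p = 1.41e-05) and Psmb9 (6.64-fold, 3.48e-05). The peptide transporter chains were Tap1 (5.20-fold, 1.17e-04) and Tap2 (4.07-fold, 1.23e-04). H2-Ob, at -0.02, sat directly between Tap2 at 2.02 and H2-Ab1 at 2.43. The bromodomain gene Brd2, between H2-Oa and H2-DMa, differed by 0.39 (SE 0.10, adjusted p = 0.057); the replicate block brought it past the threshold (0.0113).

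**Figure D3:**
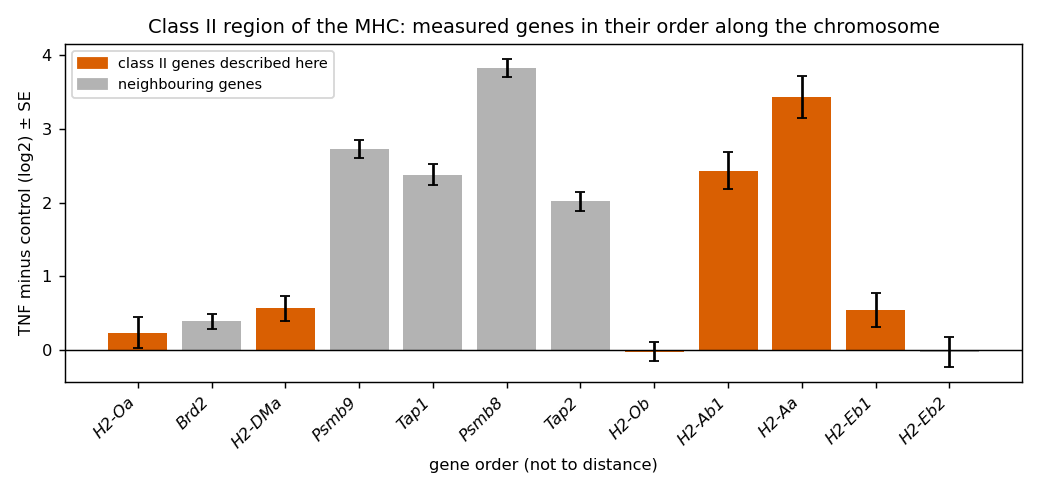
TNF minus control (log2, bars, with the limma SE) of the 12 measured protein-coding genes from H2-Oa to H2-Eb2 in chromosomal order, spaced evenly. The tall bars form 2 runs, Psmb9 to Tap2 (2.02 to 3.82) and H2-Ab1 to H2-Aa (2.43 to 3.43), with H2-Ob at -0.02 between them.

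Upstream of Ciita, the receptor and signalling genes of interferon-gamma were partly higher. This and the other pathway lists were chosen with earlier results of these data known, so their counts are a description. Of 12 measured genes 4 rose and 0 fell, where 3.87% of all genes were higher and 3.33% lower. At an unadjusted p under 0.05, 6 of the list were higher and 0 lower. The median difference was 0.38, and 2 to 4 genes of the list were higher with arrays left out. Irf1, a transcription factor that acts on the Ciita promoter, rose 8.55-fold (limma adjusted p = 2.03e-05); its mean ± SD was 8.36 ± 0.01 in the 3 controls and 11.45 ± 0.19 in the 3 TNF arrays. The receptor chains Ifngr2 and Ifngr1 rose 2.96-fold and 2.09-fold (adjusted p = 3.34e-04 and 0.00153), and the kinase Jak2 rose 1.53-fold (adjusted p = 0.0347). Jak2 lost its call whichever single array was left out (adjusted p from 0.0517 to 0.117), and Ifngr1 without both arrays of replicate 1 (0.0541). Ifng itself read 6.28 ± 0.11 in controls and 6.35 ± 0.09 with TNF (SD over 3 arrays), a difference of 0.07. Ifnb1, interferon beta, read 5.37 ± 0.11 in controls and 5.36 ± 0.30 with TNF, a difference of -0.02. Both were named after their values were seen. Ifng lay just above and Ifnb1 below the lower quartile of gene signals (6.16), so both may lie near background. Only 24 h was measured, and whether interferon was made was not tested.

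A list of 12 genes held the factors of the X and Y boxes (Rfx5, Rfxap, Rfxank, Creb1, Nfya, Nfyb and Nfyc) together with coactivators and chromatin enzymes (Crebbp, Ep300, Kat2b, Hdac2 and Ezh2). It had 1 call higher and 0 lower, where 3.87% of all genes were higher and 3.33% lower. At an unadjusted p under 0.05, 1 was higher and 2 lower, and the median difference was 0. Rfx5, the large subunit of the RFX complex, rose 1.92-fold (limma adjusted p = 0.00509), with means of 8.36 ± 0.17 in controls and 9.30 ± 0.13 with TNF (SD, n = 3), and the call was lost without both arrays of replicate 2 (adjusted p = 0.0787). Rfxap, its partner subunit, differed by -0.36 (adjusted p = 0.241) and Ezh2, a histone methyltransferase, by -0.39 (adjusted p = 0.208), and both passed as lower with the replicate block (0.0181 and 0.0204). Nfya, a chain of NF-Y, differed by 0.23 (adjusted p = 0.473).

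The endosomal list joined proteases and the thiol reductase Ifi30, which process antigen and the invariant chain, with cathepsin inhibitors, lysosomal membrane proteins, tetraspanins and ubiquitin ligases. Of its 18 genes 2 rose and 0 fell, where 3.87% of all genes were higher and 3.33% lower. At an unadjusted p under 0.05, 5 of the 18 were higher and 1 lower, and the median difference was 0.12. Sppl2a, the intramembrane protease that clears the last fragment of Cd74, rose 1.92-fold (limma adjusted p = 0.0093), from a mean of 9.98 ± 0.21 to one of 10.92 ± 0.18 (SD, n = 3). Ctsc, cathepsin C, rose 1.62-fold (adjusted p = 0.033). Ctsc kept its call only without control 2 among the 6 fits that left out 1 array (adjusted p from 0.0789 to 0.117 in the other 5), and neither call remained without both arrays of replicate 1, 2 or 3 (0.0535 to 0.26). Ifi30, the lysosomal thiol reductase GILT, and Ctsz, cathepsin Z, differed by 0.59 and 0.63 (adjusted p = 0.0955 and 0.111) and passed as higher with the replicate block (0.0037 and 0.00146). Lgmn, the asparagine endopeptidase legumain, differed by -0.45 (adjusted p = 0.126), and the block called it lower (0.00975); it was named after its value was seen. Ctss, the cathepsin best known for cutting the invariant chain, was named after its values were seen and differed by 0.11 (SE 0.58, adjusted p = 0.98); it was among the 6 genes of this list called for replicate number (adjusted p = 0.00945).

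Surface molecules that T cells read beside class II were listed with earlier results of these data known, so their count is a description. Of 14 measured genes 8 rose and 0 fell, where 3.87% of all genes were higher and 3.33% lower. At an unadjusted p under 0.05, 10 of the list were higher and 0 lower. The median difference was 0.90, and 6 to 8 genes of the list were higher with arrays left out. The adhesion ligands Vcam1 and Icam1 rose 9.60-fold and 8.88-fold (limma adjusted p = 1.23e-04 and 1.77e-04). Lgals9, the lectin galectin-9, rose 20.8-fold, to 11.67 ± 0.53 from 7.29 ± 0.44 (SD, n = 3), and Cd274, the inhibitory ligand PD-L1, rose 8.15-fold, to 10.79 ± 0.43 from 7.76 ± 0.14. The other rises were Icosl (5.00-fold), Cd70 (2.84-fold), Tnfrsf14 (1.91-fold) and Cd40 (1.83-fold). The classical costimulators Cd80 and Cd86 differed by 0.58 (SE 0.15, adjusted p = 0.067) and 0.15 (SE 0.15, adjusted p = 0.736); with the replicate block Cd80 was past the threshold (0.0022). These last 6 genes were named after their values were seen.

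**Figure D4:**
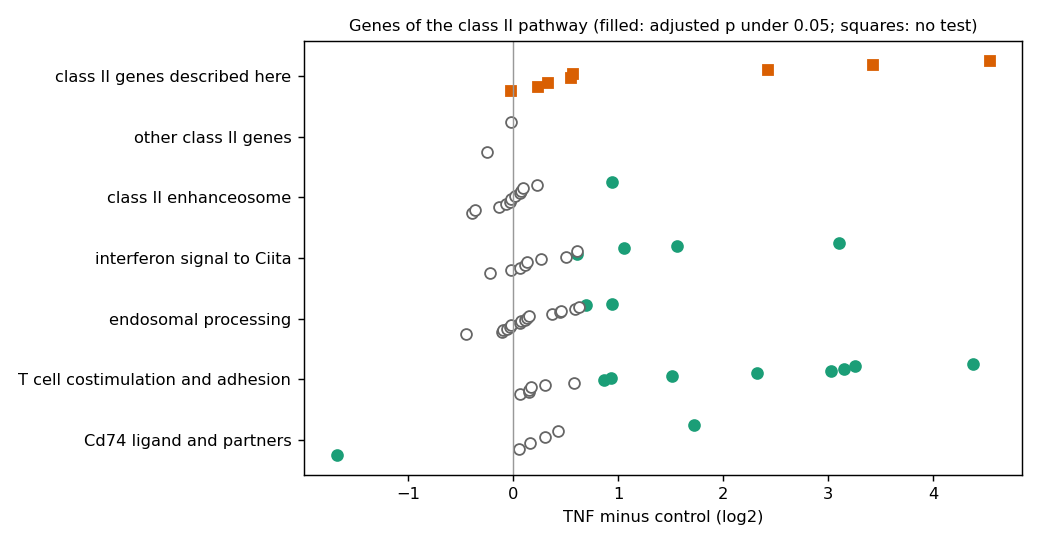
TNF minus control (log2) of each gene in 7 lists, 1 row per list and 1 point per gene; filled circles were called with limma at an adjusted p under 0.05, open circles were not, and the squares of the 8 class II genes carry no test. The costimulation and adhesion row reaches 4.38 with Lgals9, near the 4.54 of Cd74.

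Cd74 also serves at the cell surface as the receptor of the cytokine MIF, together with Cd44 and chemokine receptors. In this list of 6 genes 1 rose and 1 fell, where 3.87% of all genes were higher and 3.33% lower. The median difference was 0.23. Cd44 rose 3.29-fold, to 10.59 ± 0.13 from 8.87 ± 0.29 (SD, n = 3, limma adjusted p = 8.28e-04). Cxcr4 fell from 9.73 ± 0.71 to 8.04 ± 0.39, a log2 difference of -1.68 (SE 0.35, adjusted p = 0.0284). It did not pass without control 3 (adjusted p = 0.0686), TNF 2 (0.0965) or TNF 3 (0.0738). Nor did it pass without both arrays of replicate 2 (0.073) or of replicate 3 (0.183). Ackr3, an atypical receptor of the same chemokine, differed by 0.43 (adjusted p = 0.412) and passed as higher with the replicate block (0.0301). Ddt, a relative of MIF, differed by 0.30 (adjusted p = 0.351), and Mif itself, named after its value was seen, by 0.16 (adjusted p = 0.607).

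The genes whose profile over the 6 arrays was most like that of Cd74, each gene centred on its own mean, were Casp4 (root-mean-square distance 0.16 log2 units), Iigp1 (0.23), Gm4951 (0.24), Ifi205 (0.29) and Lcn2 (0.29). Casp4 is an inflammatory caspase, Iigp1 an interferon-inducible GTPase and Lcn2 the siderophore-binding protein lipocalin-2. The mean profile of H2-Aa, H2-Ab1 and H2-Eb1 joins unlike differences (3.43, 2.43 and 0.55), so it does not stand for each chain. Nearest to this mean were Cxcl2 (0.12), a chemokine for neutrophils, 9330175E14Rik (0.17), the carbonic anhydrase Car13 (0.18), AA467197 (0.20) and Bmp2 (0.21). The measure takes in the size of the TNF difference, and so these genes share differences of 4.36 to 4.83 and of 2.14 to 2.47 with the profiles they resemble.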

How the data were processed

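The deposited table held log2 values for 35544 probe sets on 6 arrays, with the replicates not pooled. Per the submitters' processing notes the authors used RMA (background correction, quantile normalization across arrays, probe summary) and limma, with no version given in these notes. The log base was read from the values (2.04 to 14.37). RMA understates large folds, and dim genes end at a floor. Array number, not depth, limits precision.

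In the platform annotation 21777 probe sets carried exactly 1 symbol, 1621 more than 1 and 12146 none; only the first kind was used, the probe set of highest mean per gene, which left 19926 genes. TNF minus control was tested two-sided and without a block with limma 3.58.1 (lmFit, eBayes) in R 4.3.3, with Benjamini-Hochberg adjustment over all genes and a threshold of 0.05. The residual degrees of freedom were 4. The scripts were tested on simulated data. Groups came from the sample titles. Deviations from group means correlated at 0.55, 0.65 and 0.75 between arrays of replicate number 1, 2 and 3, over 0.1 in each pair, so the numbers were taken as pairs; the labels do not state a shared source. Python 3.11.15 prepared tables and plots.

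The genes and lists were written from general knowledge, and were chosen with earlier results of these data known. Named genes were the 8 class II genes, the up to 4 genes with the smallest p in each list and the 5 nearest profiles; neighbours in gene order and box letters were added after the data were seen. Promoters and gene order came from RefSeq (GRCm38.p6). Genes whose probe sets name several genes (H2-DMb1, H2-DMb2) were not in the fit over genes. Alternatives were the replicate block, centring, quantile normalization, a filter on dim genes, variance models, array weights, other probe sets, stricter thresholds, and each array or replicate number left out.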

Additional observations from a re-analysis of the deposited data

How the results depend on the processing

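The 8 class II genes had 147 values over the alternative settings. Of these 141 stayed on their side of the threshold, 6 moved past it and 0 lost a call. Only centring, quantile normalization, array weights and left-out arrays could change a difference of these genes. The other settings alter its error, the adjustment, the genes tested or the threshold. Nothing is read from these counts, since the set was proposed for this contrast. Cd74 ranged from 4.36 to 4.74 and H2-Aa from 2.98 to 3.83. H2-Ab1 ranged from 2.11 to 2.74 and Ciita from 0.20 to 0.52. The replicate block put 6 of them past the threshold in place of 3, adding H2-Eb1, H2-DMa and Ciita; H2-DMa also passed with quantile normalization, with array weights and without TNF 3. Without genes below the median signal only 3 of the 8 were tested and 1 was called, since H2-Aa and H2-Ab1 were left out. With arrays left out, 3 to 4 were called as higher and 0 as lower.

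Over all genes the 771 higher and 663 lower became 1938 and 2351 with the replicate block, 386 and 195 at an adjusted p under 0.01, and 365 and 200 at a log2 difference of at least 1; over all probe sets 436 were lower. With arrays left out they ran from 273 to 669 higher and from 106 to 455 lower. In the pathway lists 16 genes were higher and 1 lower; with the replicate block 4 were lower, over all probe sets and at an adjusted p under 0.01 there were 0 lower, and 10 were higher at a log2 difference of at least 1. With arrays left out 10 to 15 were higher and 0 to 1 lower. Replicate number called 4592 genes and 2 of the 8, but 2513 and 0 after quantile normalization, and 1 of the 8 without genes below the median signal. The block changed no other call among the class II genes. Control signals that may lie near background limit the size of the folds of Cd74, H2-Aa and H2-Ab1 as well as what can be said of H2-Oa, H2-Ob and Ciita.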
